A study of Danio rerio with 2 samples.

Results

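Ribonucleotide reductase and thymidylate synthesis genes make the deoxynucleotides from which DNA is built, and their transcripts were followed here in adult zebrafish ovaries. The rule for the set has 8 names, and 6 genes of the 22328 in the FPKM table are reported: both genes listed under *rrm2* (ENSDARG00000078069 and ENSDARG00000020711), taken by gene ID, and *rrm1*, *tyms*, *tk1* and *dctd*, taken by symbol. The gene *dut*, whose enzyme breaks dUTP down to dUMP and which the rule also names, was not analysed here. The set was chosen on the values of the *rrm2* pair in these same libraries, with the other enzymes of the pathway added by function, so the differences of its members between the libraries are given as a description with no test.

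Ovary RNA was sequenced as 2 pools, labelled KO mix and WT mix. The KO mix came from *sox3*-/- fish made with CRISPR/Cas9 and the WT mix from their *sox3*+/+ counterparts. Both were adults of strain AB, and the study extracted RNA from 3 fish of each genotype. Each genotype has 1 library, so the spread between fish is not known for any gene. The study made a pair of frame-shift lines, and the sources used here do not name which of them gave the KO mix. The values are FPKM, fragments scaled to the length of the transcript and the size of the library. Levels of different genes can so be set side by side within a library. Between libraries the column totals still differed, at 553683.1 FPKM for KO and 572612.8 FPKM for WT. Other scalings were therefore tried as alternatives. The difference of a gene is its log2 ratio, KO over WT, with 0.1 FPKM added to each value.

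The targeted gene, *sox3* (SOX3, ENSDARG00000053569), had 2.16 FPKM in the library labelled KO and 1.18 FPKM in the library labelled WT. By quantitative real-time PCR the study found less *sox3* transcript in knockout than in wild-type ovaries, the opposite direction to these values. The cause of this conflict was not tested. The FPKM level alone does not settle whether the labels are right, and every direction below is that of the labels. The aromatase gene *CYP19A1* (ENSDARG00000041348) encodes an enzyme that makes oestrogen, and the study examined its promoter as a target of Sox3. This gene was at 1.12 FPKM in the library labelled KO and 2.04 FPKM in the library labelled WT, both low levels with no replicates. The study's quantitative real-time PCR also found less of its transcript in knockout than in wild-type ovaries, the same direction as these values. The ovary label fitted its markers: *zp2.1*, *zp3b* and *zp3a.2*, which encode proteins of the egg envelope, stood at 2924.5, 978.14 and 971.01 FPKM in the library labelled KO and at 3334.89, 1099.71 and 1031.45 FPKM in the library labelled WT. Above the smallest listed value of 0.01 FPKM were 20575 genes in the library labelled KO and 20999 in the library labelled WT. In whole ovaries, fewer cells of a type and less RNA per cell cannot be told apart.

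Ribonucleotide reductase converts ribonucleotides into deoxyribonucleotides and is the committed step of their synthesis. It joins a large subunit, Rrm1, which holds the catalytic and allosteric sites, with a small subunit, Rrm2, which holds the radical that starts the reaction. Thymidylate is then made from dUMP, which Dctd and Dut supply, by Tyms with a folate as the carbon donor, or from thymidine by the salvage enzyme Tk1. A fish egg loads such transcripts into its store of maternal mRNA, and the embryo cleaves rapidly before it transcribes its own genome.

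The small subunit is encoded by a pair of genes of very unequal level. The gene ENSDARG00000020711, the major *rrm2* gene, was at 2103.99 FPKM in the library labelled KO and 1762.62 FPKM in the library labelled WT. It held rank 17 among all listed genes in the first of these libraries and rank 24 in the other, and its log2 ratio was 0.26. Ratios this far from 0 or farther were found in 35.6% of the 418 genes with a higher value of 200 FPKM or more, and 6.94% of those genes were at least 2-fold apart. The major gene was therefore among the most abundant transcripts of both ovaries, at levels close to each other.

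The other gene, ENSDARG00000078069, the minor *rrm2* gene, was at 3.16 FPKM in the library labelled KO and 65.16 FPKM in the library labelled WT. Its level was 20.6-fold lower in the library labelled KO, a log2 ratio of -4.32. Its rank was 10100 in that library and 1514 in the library labelled WT. Of 2343 genes that reached 50 FPKM in either library, 5 (0.213%) were lower in the library labelled KO by 16-fold or more, and the minor *rrm2* gene was the fifth of them. Of the 1925 genes with a higher value of 50 to under 200 FPKM, 39 (2.03%) were at least 2-fold apart in either direction. This gene was named for that contrast, so its place among them is a description of the choice.

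**Figure D1:**
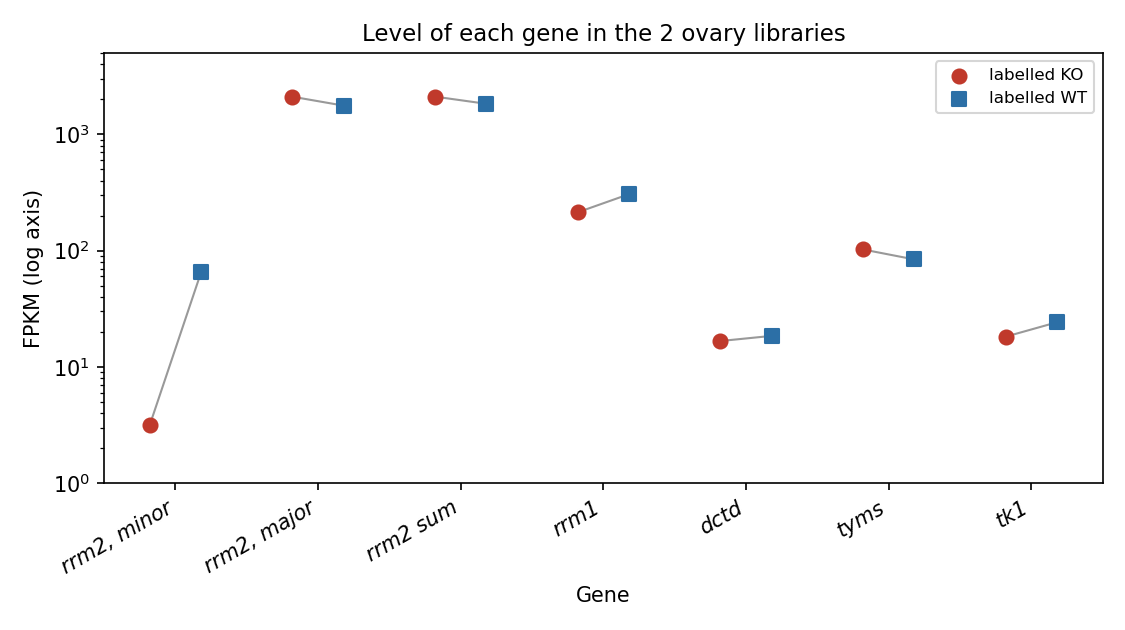
FPKM (log axis) of each gene in the library labelled KO (circles, left of each pair) and the library labelled WT (squares, right), 1 library each. The line of the minor *rrm2* gene runs between 3.16 FPKM (KO) and 65.16 FPKM (WT), while the sum of both genes stands at 2107.15 FPKM (KO) and 1827.78 FPKM (WT).

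Summed over both genes, *rrm2* was at 2107.15 FPKM in the library labelled KO and 1827.78 FPKM in the library labelled WT, 1.15-fold higher under the KO label, with a log2 ratio of 0.21. The minor gene made up 0.150% of this sum in the library labelled KO and 3.56% in the library labelled WT. The 62.0 FPKM by which the minor gene was lower stand beside 341.37 FPKM by which the major gene was higher. The major gene made up 99.9% of the sum in the library labelled KO and 96.4% in the library labelled WT, so the sum followed that gene. With 1 library per genotype, no direction is read from the 1.15-fold difference of the sum. Both genes carry the same symbol, RRM2, and the authors' counting could have split reads between them, so each value alone is less certain than the sum. The RefSeq names of assembly GRCz12tu hold *rrm2* only as a synonym of *rrm2l* and of *rrm2b*, and no link to either Ensembl ID was given, so which gene ID is *rrm2l* was not settled.

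A further small subunit, *rrm2b* (RRM2B, ENSDARG00000033367), which in mammals is induced by p53 and supplies deoxynucleotides outside S phase, is no member of the set. It was at 4.02 FPKM in the library labelled KO and 2.15 FPKM in the library labelled WT, a log2 ratio of 0.87. At such low levels, from 1 to under 5 FPKM, 30.4% of all genes were at least 2-fold apart. It made up 0.190% of the summed small-subunit level in the library labelled KO and 0.117% in the library labelled WT.

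The large subunit *rrm1* (RRM1, ENSDARG00000014017) had 213.38 FPKM in the library labelled KO and 305.78 FPKM in the library labelled WT. It was 1.43-fold lower under the KO label (log2 ratio -0.52), and 15.3% of the 418 genes of such a level were as far apart or farther. Because FPKM is per length, the subunits can be set against each other within a library. The *rrm2* sum exceeded *rrm1* 9.88-fold in the library labelled KO and 5.98-fold in the library labelled WT. This ratio does not depend on how the libraries are scaled to each other, and it was 1.65-fold higher in the library labelled KO. With 1 library per genotype its spread is not known. How many pairs of genes shift as far was not computed, for this ratio or for those of *tyms* below.

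**Figure D2:**
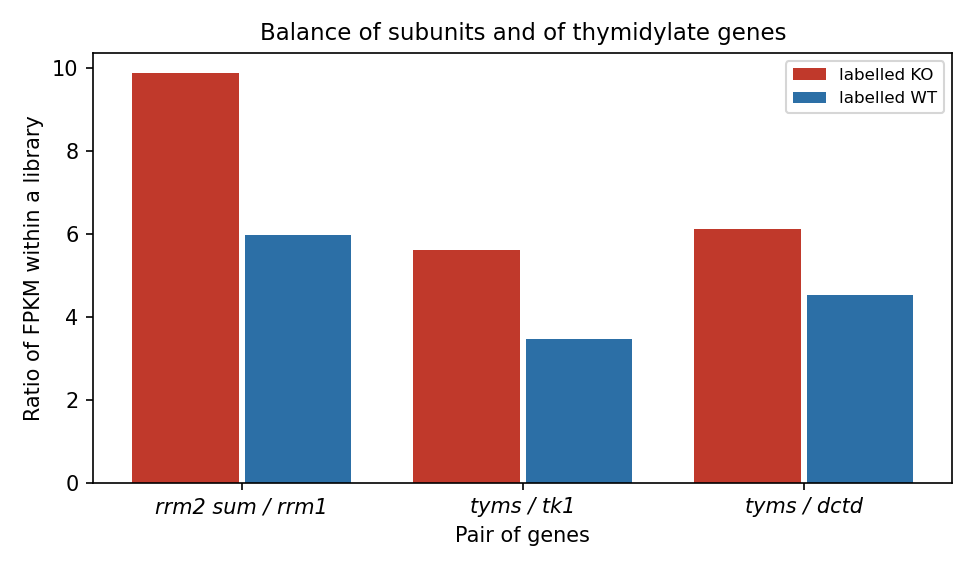
FPKM of a gene divided by that of another in the same library (bars from 0), for the library labelled KO (left bar) and the library labelled WT (right bar), with no replicates. The 3 ratios drawn were higher in the library labelled KO, among them 9.88 against 5.98 for the *rrm2* sum over *rrm1*. For *tyms* over *tk1* they were 5.62 against 3.47. The *rrm2* sum over *tyms*, not drawn, went the other way, at 20.6 in the library labelled KO and 21.8 in the library labelled WT.

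Among the thymidylate genes, *tyms* (TYMS, ENSDARG00000042894), the enzyme that methylates dUMP to dTMP, was at 102.17 FPKM in the library labelled KO and 83.86 FPKM in the library labelled WT. Its log2 ratio was 0.28, and 28.6% of genes from 50 to under 200 FPKM were as far apart or farther.

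The salvage kinase *tk1* (TK1, ENSDARG00000102245), which phosphorylates thymidine in the cytosol, had 18.19 FPKM in the library labelled KO and 24.2 FPKM in the library labelled WT, a log2 ratio of -0.41. Of the 3080 genes with a higher value of 20 to under 50 FPKM, 22.7% were as far apart or farther and 4.32% were at least 2-fold apart. The dCMP deaminase gene *dctd* (DCTD, ENSDARG00000036990), which feeds dUMP to thymidylate synthase, was at 16.68 FPKM in the library labelled KO and 18.47 FPKM in the library labelled WT. Its log2 ratio of -0.15 was the nearest to 0 among the members reported. Of the 4146 genes from 5 to under 20 FPKM, 72.1% were as far apart or farther. Set against the salvage kinase, *tyms* was 5.62-fold higher than *tk1* in the library labelled KO and 3.47-fold higher in the library labelled WT. Against *dctd* it was 6.13-fold and 4.54-fold higher, in the same order of libraries.

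All 6 genes reported reached 1 FPKM in both libraries. Of them, 1 was lower in the library labelled KO by 2-fold or more, the minor *rrm2* gene, and none was higher by as much. Over the 13455 genes that reached this level in either library, 7.89% were lower by 2-fold or more and 6.34% higher. At 1.4-fold, the fold threshold of the study, 2 of the 6 were lower, with *rrm1* added, and none higher, against 17.5% lower and 15.1% higher over all genes. These 6 members had a median log2 ratio of -0.28, beside -0.02 over all genes. With 6 genes measured in the same pair of libraries, and the set chosen with these values known, nothing is read from this count.

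**Figure D3:**
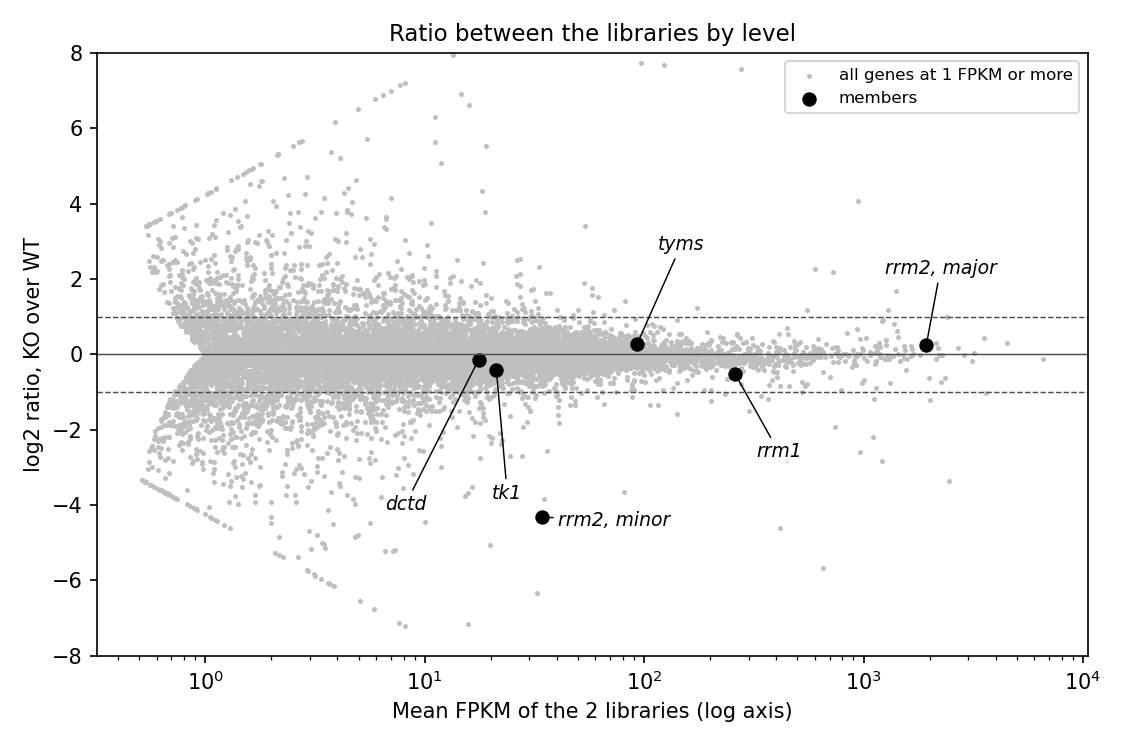
Log2 ratio of KO over WT against the mean FPKM of both libraries (log axis) for all genes at 1 FPKM or more (grey points) and the 6 members reported (black points). Dashed lines mark 2-fold, and 5 genes with ratios beyond 8 in size are not drawn. The minor *rrm2* gene stands at -4.32, apart from the other 5 shown, which lie from -0.52 to 0.28.

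In the order of their levels the 6 members reported kept nearly the same places. In the library labelled KO the major *rrm2* gene was followed by *rrm1*, *tyms*, *tk1*, *dctd* and the minor *rrm2* gene. In the library labelled WT the order was the major *rrm2* gene, *rrm1*, *tyms*, the minor *rrm2* gene, *tk1* and *dctd*. Neighbours such as *tk1* and *dctd*, at 18.19 and 16.68 FPKM in the library labelled KO and 24.2 and 18.47 FPKM in the library labelled WT, have no replicates by which their order could be judged. The 6 genes together came to 2457.57 FPKM in the library labelled KO and 2260.09 FPKM in the library labelled WT, of which the *rrm2* pair held 85.7% and 80.9% in the same order.

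The pair of values of the minor *rrm2* gene was compared with those of all other genes by the distance of log2(FPKM + 0.1) over the 2 libraries. The nearest was *RGS2*, which encodes a regulator of G protein signalling, at 4.48 FPKM in the library labelled KO and 65.63 FPKM in the library labelled WT (distance 0.49). It was followed by zgc:152891, at 3.57 and 40.67 FPKM, and by *HAPLN4*, a link protein gene of the extracellular matrix, at 2.56 and 30.27 FPKM. *COQ9*, of coenzyme Q synthesis, was at 4.56 and 31.33 FPKM, and *PSAT1*, of serine synthesis, at 6.44 and 42.63 FPKM (distance 1.18), with the library labelled KO given before the library labelled WT in each pair. Likeness over 2 libraries is a description of 2 values.

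Other genes of deoxynucleotide supply mostly lay within 2-fold. Where an ID stands beside the symbol of such a gene, another gene carries the same symbol and may share its reads, which makes the value less certain. Of 172 genes in 6 lists chosen by function, 147 reached 1 FPKM in either library. By 2-fold or more, 4 of the 147 were higher and 5 lower under the KO label, 6.12% in all, where 14.2% of all genes were at least 2-fold apart. Their median higher value was 36.51 FPKM, against 13.69 FPKM over all genes, and genes of low level were more often apart, as the shares of 30.4% from 1 to under 5 FPKM and 4.32% from 20 to under 50 FPKM show. Their median log2 ratio was -0.03, and 0.02 when the column totals were made equal, so that no direction is read from it.

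Salvage, phosphorylation and breakdown of deoxynucleotides was measured by 25 genes, of which 3 were lower and none higher by 2-fold or more (median -0.13). These 3 were 12.0% of the list. Of all genes, 7.89% were lower by 2-fold or more, and 14.2% were at least 2-fold apart in either direction. The deoxycytidine kinase gene *DCK*, whose enzyme is the first step of deoxycytidine salvage, was at 8.14 FPKM in the library labelled KO and 23.64 FPKM in the library labelled WT, a log2 ratio of -1.53. At that level, from 20 to under 50 FPKM, 4.32% of genes were at least 2-fold apart, against 30.4% from 1 to under 5 FPKM. The other 2 were low, with *UPP1*, uridine phosphorylase, at 0.63 and 1.37 FPKM and one *ADA2* gene (ENSDARG00000051746), an adenosine deaminase, at 0.76 and 1.86 FPKM in the library labelled KO and the library labelled WT. The most abundant of the list were *DCTPP1*, which hydrolyses dCTP, at 156.94 and 171.58 FPKM, and *cmpk*, a kinase of UMP and CMP, at 88.9 and 90.31 FPKM, in the same order.

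The 5 genes of pyrimidine synthesis were all within 2-fold (median 0.03). *UMPS*, which makes UMP, was at 125.95 FPKM in the library labelled KO and 129.34 FPKM in the library labelled WT, and *CAD*, which starts the pathway, at 66.84 and 76.08 FPKM. Of 15 genes of purine synthesis 1 was lower and none higher by 2-fold or more, 6.67% of the list (median -0.13). Of all genes, 7.89% were lower by as much, and 14.2% were at least 2-fold apart in either direction. The median higher value of this list was 32.27 FPKM, and from 20 to under 50 FPKM 4.32% of genes were at least 2-fold apart. The lower gene was an *IMPDH1* gene (ENSDARG00000042336), an IMP dehydrogenase of the guanine branch. This *IMPDH1* gene was at 4.82 FPKM in the library labelled KO and 10.99 FPKM in the library labelled WT. At that level 12.9% of genes were at least 2-fold apart. Its relative *IMPDH2* had 101.01 and 110.48 FPKM and *ATIC*, of the last steps to IMP, 129.19 and 126.14 FPKM, in the same order.

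Folate supplies the carbon that Tyms transfers. Of 19 genes of the folate and one-carbon cycle 1 was higher and 1 lower by 2-fold or more (median 0.19). These were 10.5% of the list, where 14.2% of all genes were at least 2-fold apart. *ALDH1L2*, a mitochondrial formyltetrahydrofolate dehydrogenase, was at 1.21 FPKM in the library labelled KO and 0.15 FPKM in the library labelled WT, a log2 ratio of 2.39 at a level where ratios are least certain. *MTRR*, which keeps methionine synthase active, was at 5.18 FPKM in the library labelled KO and 14.43 FPKM in the library labelled WT. *SHMT1*, which makes the folate that Tyms uses, was at 155.84 and 136.51 FPKM, and *MTHFD1* (ENSDARG00000040492) at 77.62 and 80.96 FPKM, in the same order.

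Ribonucleotide reductase is recharged with electrons from thioredoxin or glutaredoxin. Of 31 genes for these donors and for known regulators of the enzyme, 3 were higher and none lower by 2-fold or more (median 0.15). These 3 were 9.68% of the list. Of all genes, 6.34% were higher by 2-fold or more, and 14.2% were at least 2-fold apart in either direction. The list lay at higher levels, with a median higher value of 33.64 FPKM against 13.69 FPKM over all genes. At the level of *GLRX*, from 50 to under 200 FPKM, 2.03% of genes were at least 2-fold apart. At that of *E2F4*, from 20 to under 50 FPKM, the share was 4.32%, and from 5 to under 20 FPKM it was 12.9%. *GLRX*, a glutaredoxin, was at 119.12 FPKM in the library labelled KO and 44.39 FPKM in the library labelled WT, a log2 ratio of 1.42. *E2F4*, a transcription factor of the family that controls S phase genes, was at 40.32 and 14.03 FPKM, and *TXNRD2* (ENSDARG00000075923), a thioredoxin reductase that is mitochondrial in mammals, at 5.15 and 1.55 FPKM, the library labelled KO first. The other gene listed as *TXNRD2* (ENSDARG00000094470) went the opposite way, at 1.46 FPKM in the library labelled KO and 2.87 FPKM in the library labelled WT, so no direction is given for this symbol. Thioredoxin itself, *TXN*, stood at 104.2 FPKM in the library labelled KO and 111.45 FPKM in the library labelled WT, and the reductase *TXNRD3* at 149.43 and 142.74 FPKM.

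DNA replication uses the deoxynucleotides. All 52 of its genes at 1 FPKM or more were within 2-fold, and their log2 ratios ran from -0.98 to 0.60 (median -0.07). *GMNN*, geminin, which holds back relicensing of origins, was at 848.81 FPKM in the library labelled KO and 956.25 FPKM in the library labelled WT, and *slbp2*, of the histone mRNA binding proteins, at 708.48 and 530.56 FPKM. The 14 markers of proliferating cells had log2 ratios from -0.31 to 0.63, led in level by *CCNB1*, *CCNB2* and *CDC20*, with sums of 3504.03 FPKM in the library labelled KO and 3568.13 FPKM in the library labelled WT. The minor *rrm2* gene was chosen for its contrast, so nothing is read from its ratio lying outside the range of these 2 lists.

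**Figure D4:**
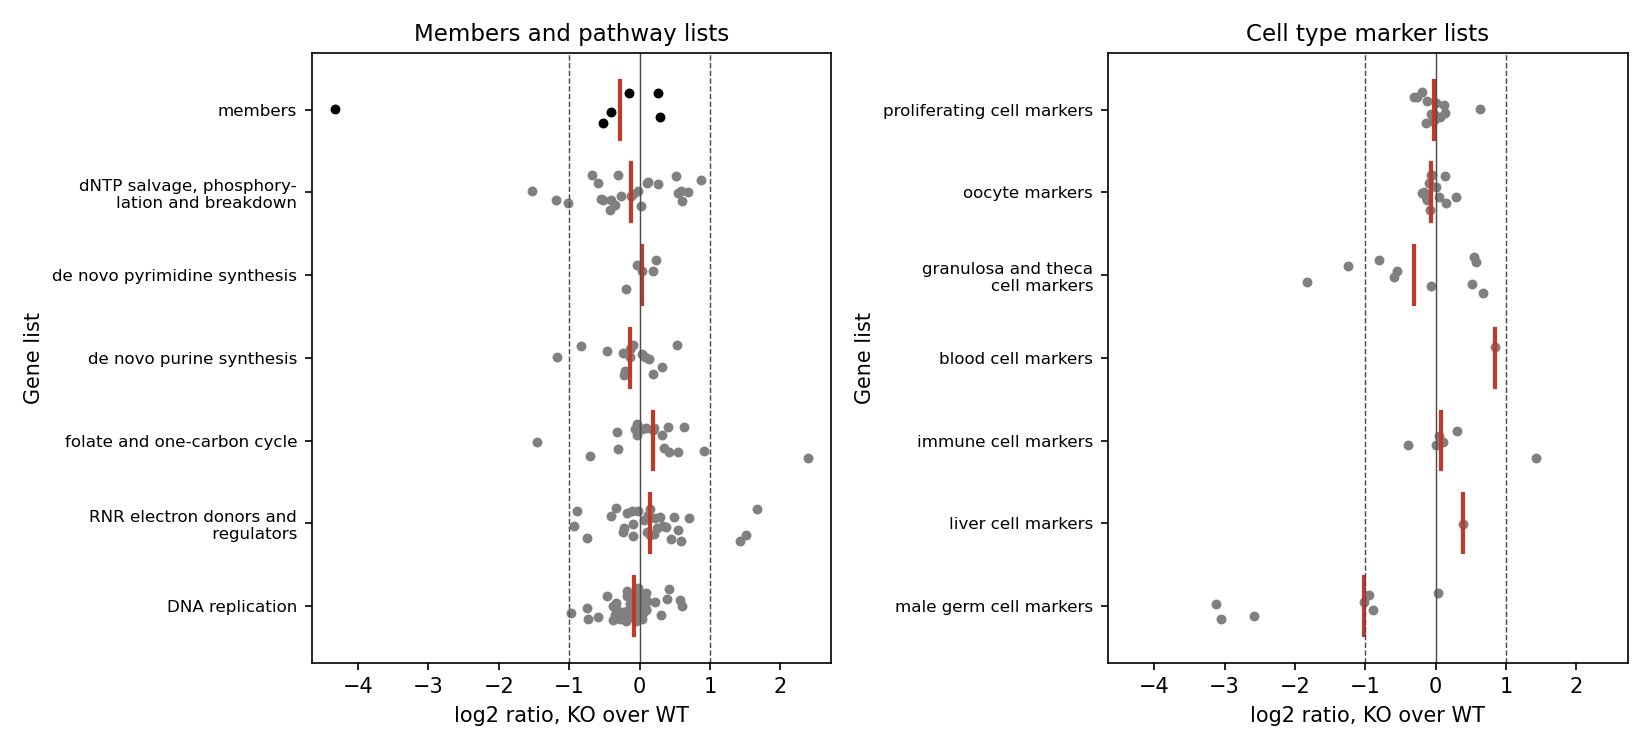
Log2 ratio of KO over WT for each gene at 1 FPKM or more (points) in the members and 6 pathway lists (left) and 7 marker lists (right), with the median of each list (red line) and 2-fold (dashed lines). The replication genes lie from -0.98 to 0.60, while the male germ cell markers reach -3.12.

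Markers of the cells that an ovary holds were set beside these values. The 13 oocyte markers lay from -0.19 to 0.28 on the log2 scale and summed to 7770.69 FPKM in the library labelled KO and 8372.63 FPKM in the library labelled WT. The 17 genes of granulosa and theca cells summed to 297.24 FPKM in the library labelled KO and 212.55 FPKM in the library labelled WT, most of it from the steroid synthesis genes *CYP11A1* (ENSDARG00000002347), *hsd3b2* and *CYP17A1*. The sum and most of the list ran opposite ways: of the 10 that reached 1 FPKM, 6 were lower and 4 higher under the KO label, with a median log2 ratio of -0.31. By 2-fold or more 2 were lower and none higher, *STAR*, which brings cholesterol into mitochondria, at 0.46 FPKM in the library labelled KO and 1.88 FPKM in the library labelled WT, and a *FOXL2* gene (ENSDARG00000068417), a transcription factor of granulosa cells, at 1.47 and 3.61 FPKM in the same order. Over all genes at 1 FPKM or more, 7.89% were lower and 6.34% higher by as much. At the level of *STAR* and this *FOXL2* gene, from 1 to under 5 FPKM, 30.4% were at least 2-fold apart. The 4 higher genes, none by 2-fold, were *CYP11A1* (ENSDARG00000002347) at 153.47 FPKM in the library labelled KO and 105.49 FPKM in the library labelled WT, *hsd3b2* at 77.18 and 51.65 FPKM, *CYP17A1* at 48.96 and 30.73 FPKM and *hsd3b1* at 3.67 and 2.54 FPKM. Of the lower genes within 2-fold, the growth factor gene *gsdf* was at 4.36 FPKM in the library labelled KO and 6.62 FPKM in the library labelled WT. *FSHR* was listed at the smallest value, 0.01 FPKM, in the library labelled KO and at 0.07 FPKM in the other. Blood cell markers summed to 26.3 FPKM in the library labelled KO and 15.85 FPKM in the library labelled WT, most of it *hbaa1*, a globin, with *cahz* and *SLC4A1* (ENSDARG00000012881) next and both under 1 FPKM in either library. Immune cell markers, with *cd74a*, *SPI1* and *cd74b* the highest, summed to 16.79 and 14.62 FPKM, and liver cell markers, with *tfa*, *CP* and *fga* the highest, to 2.96 and 3.14 FPKM, in the same order. Of the 11 liver genes 5 were listed at 0.01 FPKM in the library labelled KO and none in the library labelled WT. These 5 were at only 0.06 to 0.39 FPKM in the library labelled WT. Over all 22328 genes, 1753 were listed at 0.01 FPKM in the library labelled KO and 1329 in the library labelled WT.

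The 12 genes of the list named for male germ cells summed to 48.66 FPKM in the library labelled KO and 77.35 FPKM in the library labelled WT, and of the 7 that reached 1 FPKM, 4 were lower under the KO label by 2-fold or more and none higher. Over all genes 7.89% were lower and 6.34% higher by as much, and 30.4% of genes from 1 to under 5 FPKM were at least 2-fold apart, the level of 3 of these 4. *ROPN1L*, of the sperm tail, was at 0.38 FPKM in the library labelled KO and 4.07 FPKM in the library labelled WT, *TEKT4*, a tektin of the axoneme, at 0.04 and 1.06 FPKM, and *insl3*, a hormone gene of Leydig cells, at 2.4 and 4.98 FPKM, in the same order. *SPATA18*, known for a part in mitochondrial quality control, was at 2.75 FPKM in the library labelled KO and 16.89 FPKM in the library labelled WT. *PIWIL1* and the synaptonemal complex gene *SYCP1*, which female germ cells also express, were at 34.18 and 4.83 FPKM in the library labelled KO and at 33.5 and 9.4 FPKM in the library labelled WT. In the library labelled KO 2 of the 12 were listed at 0.01 FPKM, *TEKT2* and *TSSK6*, and in the library labelled WT none. Over all 22328 genes, 1753 were so listed in the library labelled KO and 1329 in the library labelled WT. The part of any of these cell types in the difference of the minor *rrm2* gene was not tested.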

How the data were processed

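Ovary poly(A) RNA was sequenced on a BGISEQ-500. The authors mapped reads with HISAT and Bowtie2, calculated FPKM with RSEM and deposited 1 FPKM column per genotype, with 2 decimals and a smallest value of 0.01. The submitters' processing notes name the build GRCz10, and versions of tools were not given in the sources used here. Symbols came from a table of gene IDs that matched 20336 of 22328 genes. Names were matched exactly, then in capitals, then in capitals with a final a or b removed.

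The table gives neither reads nor lengths. The study reports nearly equal totals of clean reads for both libraries. Log2 ratios taken without the added 0.1 FPKM lay within 0.05 of 0 for 471 of the 3000 genes that both libraries listed from 0.05 to 0.4 FPKM. Values listed with 2 decimals can be equal after rounding, and what gave these ratios was not tested. Reads per gene were not recovered, so the number of reads behind each value is unknown.

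Log2 ratios used a pseudocount of 0.1 FPKM, which understates the change of low genes, and genes that reached 1 FPKM in either library were counted at 2-fold. With 1 library per genotype no test was possible. Named genes are the members, *sox3*, *rrm2b*, in each pathway list the genes at least 2-fold apart (at most 6) and the 2 highest, in each marker list the 3 highest, and the 5 genes nearest to ENSDARG00000078069. *FSHR*, *CYP19A1*, *STAR*, *FOXL2*, *gsdf*, *hsd3b1*, *ROPN1L*, *TEKT4*, *insl3*, *TEKT2*, *TSSK6* and the second *TXNRD2* gene were named after their values were seen. A gene that the rule covers is not reported here. The members and lists were chosen with earlier results of these data known. Alternatives were pseudocounts of 0.01 and 1 FPKM, equal column totals, a trimmed mean of log2 ratios, the median ratio, no filter or one of 5 FPKM, and a 1.4-fold threshold. No sequence was printed. The counting step was tested on simulated data. Python 3.11.15, numpy 2.4.6, pandas 2.3.3 and matplotlib 3.10.9 were used.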

Additional observations from a re-analysis of the deposited data

How the results depend on the processing

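With 1 library per genotype no library could be left out and no replicate spread exists, so a ratio is called moved here when it shifts by 0.1 or more on the log2 scale. Over 30 recomputed member ratios, 1 moved and none changed sign: with a pseudocount of 1 FPKM the log2 ratio of the minor *rrm2* gene was -3.99. The other scalings multiplied the KO column by 1.01 to 1.03. Under each of these scalings the salvage list had 2 genes lower by 2-fold or more in place of 3. The pathway lists together had 4 in place of 5. At equal column totals the marker lists had 5 lower genes in place of 6. At 1.4-fold, 2 reported members were lower. Of 147 pathway genes 20 were higher and 18 lower, and of 52 marker genes 7 and 11. Over all 13455 genes at 1 FPKM or more, 15.1% were higher and 17.5% lower by as much. With a pseudocount of 1 FPKM the pathway lists had 3 lower genes, and the marker lists 0 higher and 2 lower. Without the filter the pathway lists had 11 lower genes, and the marker lists 2 higher and 11 lower. At 5 FPKM or more the pathway lists had 3 lower genes, and the marker lists 0 higher and 1 lower. No share over all genes was computed for these scaling, pseudocount and filter settings, so nothing is read from their counts. At equal column totals the median of the proliferating cell markers was 0.02 in place of -0.03. The granulosa and theca cell median was 0.56 at 5 FPKM or more in place of -0.31. The liver cell median was -0.10 over all 11 genes without the filter, in place of 0.39, which rested on 1 gene. Adding *rrm2b* left the small-subunit sum at 2111.17 FPKM in the library labelled KO and 1829.93 FPKM in the library labelled WT. No paired analysis was possible because each genotype has 1 library.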
